A study of Mus musculus with 26 samples.

Results

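Bone marrow macrophages that lacked Cox2 (KO) were compared with wild-type (WT) macrophages after 3 days with M-CSF and RANKL. The comparison rests on 8 of the 26 arrays of the series, 4 KO arrays (numbered 7, 8, 11 and 12r in the labels) and 4 WT arrays (2, 3, 4 and 6), chosen by their titles. The cells came from male CD1 mice aged 2 months and were expanded in M-CSF at 100 ng/ml before RANKL was given. The same experiment held 4 arrays of KO cells with the same cytokines and PGE2 at 1 µM, and 4 arrays of WT cells with the same cytokines and the Cox2 inhibitor NS398 at 0.1 µM. An earlier experiment held KO and WT cells after 1 day with both cytokines (n = 3 each). The labels do not describe the KO allele or say whether KO and WT mice were littermates, and CD1 is an outbred stock. They call the replicates biological without saying that each came from its own mouse, so p-values measure the spread between these samples. No probe that carries a name here is Ptgs2, the gene of Cox2, so its level was not analysed here as a check of the genotype labels.

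Cox2 turns arachidonic acid into prostaglandin H2, which synthases such as Ptges convert to prostaglandin E2 (PGE2). PGE2 acts on EP receptors, and those of the EP2 and EP4 type raise cyclic AMP in macrophages. RANKL, with M-CSF for survival, drives macrophages to fuse into bone-resorbing osteoclasts, and it induces Cox2 in their precursors.

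The intensities were deposited on a linear scale, and log2 changes are given as KO minus WT throughout. Each was tested with limma across the probes of all 16 day-3 arrays, and a probe was called at a Benjamini-Hochberg adjusted p under 0.05. Probes carry a gene name only where the authors listed them as differing in at least one of their comparisons. Of 5704 named genes tested, 16.3% were called (8.73% higher and 7.52% lower), against 6.37% of all 18961 probes, and counts in gene lists are to be read against the first of these shares. Macrophage and osteoclast markers spanned a wide range in both groups. The 9 macrophage markers tested averaged 303 to 27637 in KO and 316 to 29125 in WT arrays, and the 10 osteoclast markers 242 to 34693 in KO and 254 to 36141 in WT arrays. Csf1r, the M-CSF receptor, averaged 1908 ± 460.0 in KO and 2045 ± 510.4 in WT arrays (mean ± SD, n = 4 each), and the bone-matrix protease Ctsk averaged 28662 ± 3318 in KO and 28100.3 ± 4543 in WT arrays. Genes of B, T and dendritic cells numbered 7 among those tested, and none was called. They averaged 130 to 199 in KO arrays, near the dim end of the scale, and no detection p-value was given for them. The lack of calls therefore says little about such cells. Single markers of other cells were called lower. Hdc, the only mast cell gene tested, averaged 139 ± 9.59 in KO, where it was not above background, and 210.2 ± 9.69 in WT arrays (log2 -0.60, adjusted p = 5.97e-05). The megakaryocyte gene Pf4 averaged 907 ± 271 in KO and 3292 ± 1944 in WT arrays (log2 -1.70, adjusted p = 0.0167); it did not pass without KO array 8, WT array 4 or WT array 2 (adjusted p = 0.0642 to 0.0673). The summed intensity of Pf4 and Ppbp was 719 to 1370.3 in KO arrays, against 1774 to 5619 in WT arrays. This sum is mostly Pf4, since Ppbp averaged 141 in KO and 169 in WT arrays and was not called (log2 -0.26). Neutrophil and stromal markers are given further below, and the part of such cells in the results was not tested.

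Some arrays of one group resembled each other more than the rest. WT arrays 2 and 4 correlated at 0.993 over all probes tested and WT arrays 3 and 6 at 0.990, against 0.970 to 0.977 between these pairs. KO arrays 7 and 11 correlated at 0.995, against 0.983 to 0.989 for the other KO pairs. WT arrays 3 and 6 correlated with the KO arrays at 0.978 and 0.979 on average, against 0.965 and 0.961 for WT arrays 2 and 4. Totals are therefore also given without one WT pair, and list counts with the 4 closest pairs (those 3 and NS398 arrays 17 and 18) averaged to 1 value each. These settings were chosen after the data were seen.

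The largest falls in KO were larger than the largest rises. Of 18961 probes tested 1208 were called, 650 higher (3.43% of those tested) and 558 lower (2.94%) in KO. Past a log2 change of 1 there were 71 higher and 107 lower probes, and past 2 there were 5 higher and 30 lower. KO and WT arrays did not overlap for 1131 of the 1208, against 11.6% of all probes tested. The median change over all probes was 0.0022. The total was 2350 (1271 higher, 1079 lower) without WT arrays 3 and 6, and 598 (301 higher, 297 lower) without WT arrays 2 and 4. With the 4 closest pairs averaged it was 458 (238 higher, 220 lower).

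**Figure D1:**
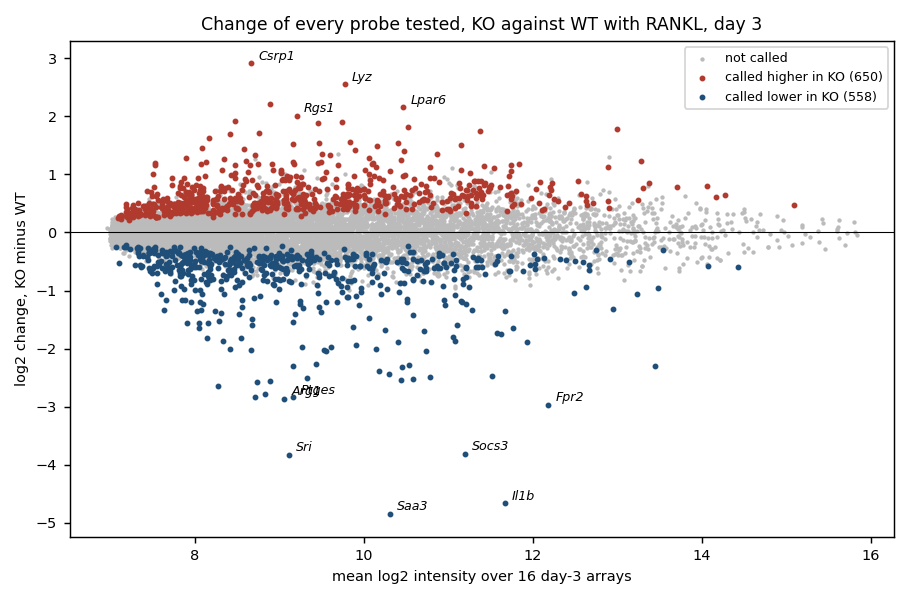
Log2 change (KO minus WT, day 3) of each of 18961 probes against its mean log2 intensity over 16 arrays. Red points are the 650 probes called higher in KO, blue points the 558 called lower, and grey points those not called; the named falls reach past -4 while the named rises stay below 3.

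Saa3, an acute-phase serum amyloid that macrophages make, fell most. Its intensity was 209, 156, 235 and 177 in KO arrays, against 5722, 3336, 8320.2 and 5902 in WT arrays. All 4 KO arrays lay far below the lowest WT array, and the log2 change was -4.85 ± 0.24 (SE; limma adjusted p = 2.28e-09). Il1b, the precursor of the inflammatory cytokine interleukin-1 beta, read 721, 799.7, 748 and 629.5 in KO arrays, against 15108, 21393, 15585 and 22412 in WT arrays, a 25.4-fold difference (log2 -4.67 ± 0.13, adjusted p = 3.43e-12). Within WT, arrays 3 and 6 were the higher ones, in contrast to Saa3, for which array 3 was the lowest. Il1a, the gene of the related interleukin-1 alpha, read 166, 182, 161 and 163 in KO arrays, against 1071, 1619.5, 761 and 1537 in WT arrays. The KO values lay in a narrow band, and WT arrays 3 and 6 were again the higher ones (log2 -2.83, adjusted p = 1.6e-06).

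Socs3, the feedback inhibitor of JAK-STAT signalling, read 727, 709.9, 617 and 584 in KO arrays and 9205, 10780.0, 7288 and 9945 in WT arrays (log2 -3.81 ± 0.14, adjusted p = 4.3e-11). Arg1, which splits arginine into ornithine and urea, read 151, 173, 176 and 166 in KO arrays, against 1301, 1117, 1222 and 1218 in WT arrays. The WT arrays of Arg1 lay close together, unlike those of Saa3, and the change was -2.87 ± 0.13 on the log2 scale (adjusted p = 6.66e-10). Ptges, the inducible PGE2 synthase downstream of Cox2, read 169.6, 165, 169.9 and 166 in KO arrays, against 1496, 724, 2009.6 and 954 in WT arrays (log2 -2.84 ± 0.24, adjusted p = 1.11e-06). For Ptges WT arrays 3 and 6 were the lower pair and still more than 4 times the KO level.

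The other leading falls included receptors and secreted proteins of activated macrophages. Fpr2, a formyl peptide receptor that also binds serum amyloid, averaged 1271 ± 145 in KO and 9977 ± 1541 in WT arrays (log2 -2.97). Serpinb2, an inhibitor of plasminogen activators, fell (log2 -2.78), as did Chil1, a secreted chitinase-like protein (log2 -2.58). Falls were also found for the lectin receptor Clec4e (log2 -2.54), the costimulatory receptor Cd40 (log2 -2.53), the adhesion molecule Vcam1 (log2 -2.50) and the membrane mucin-like protein Pdpn (log2 -2.47). Gja1, the gap junction protein connexin 43, fell (log2 -2.44) and had the smallest error of these, with 466, 491, 456 and 539 in KO arrays against 2503, 2543, 2794 and 2726 in WT arrays. Lad1, a filament-anchoring protein, was not above background in KO arrays and at least 6.24-fold lower there than in WT arrays (adjusted p = 1.57e-09). Among the rises, Csrp1, a LIM-domain protein, was not above background in WT arrays and at least 7.54-fold higher in KO. It read 951, 1157, 1029 and 1134 in KO arrays, against 136, 146, 136 and 146 in WT arrays (adjusted p = 4.49e-12).

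The other rises included receptors, carriers and enzymes of several kinds. Lyz, a lysozyme that digests bacterial walls, read 1720.2, 3589.6, 1709.9 and 3475 in KO arrays and 512, 578, 318 and 332 in WT arrays (log2 2.55 ± 0.31, adjusted p = 4.98e-05). KO arrays 8 and 12r were about 2 times as bright as arrays 7 and 11, and all 4 lay above the WT arrays. Lpar6, a receptor for lysophosphatidic acid, read 3229, 2689, 3181 and 3146 in KO arrays, against 658, 610.0, 727 and 758 in WT arrays (log2 2.15 ± 0.12, adjusted p = 5.06e-09). Ccnd1, cyclin D1 of the G1 phase, averaged 1459 ± 149 in KO and 392 ± 38.3 in WT arrays (log2 1.90, adjusted p = 6.85e-06). The RNA-editing deaminase Apobec1 was among the brightest, with 15507, 18159, 15434 and 18159 in KO arrays against 4828, 5612, 4307 and 4769.6 in WT arrays. The serotonin receptor Htr2b rose by 1.54, the potassium channel Kcnk13 by 1.42 and the iron exporter Slc40a1 (ferroportin) by 1.51 on the log2 scale. Tlr13, a receptor for bacterial ribosomal RNA, rose by 1.35, and the beta-glucan receptor Clec7a by 1.56. Of 3 probes of Rgs1, which shortens G protein signals, the one with the largest change rose by 2.00. Another had a log2 change of 0.72 and was called. The brightest, which stands for the gene in counts, had one of 0.50 and was not called. The organic anion carrier Slco2b1 rose by 1.72 and the glycosyltransferase Gcnt1 by 1.69.

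Of 9 macrophage markers 4 rose and 1 fell (2 and 0 with the pairs averaged). The mannose receptor Mrc1 rose by 0.59, a call lost with the pairs averaged (adjusted p = 0.0585) and without WT arrays 2 and 4 (0.0534). Of 11 genes of alternative activation 4 rose and 1, Arg1, fell (2 and 1 with the pairs averaged), so that Arg1 moved opposite to Mrc1 and Clec7a of the same list. Of 25 antioxidant and iron genes 6 rose and 2 fell (3 and 1 with the pairs averaged). The secreted glutathione peroxidase Gpx3 rose by 0.95 and Gclm, a subunit of the glutathione-synthesis enzyme, by 0.58.

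**Figure D2:**
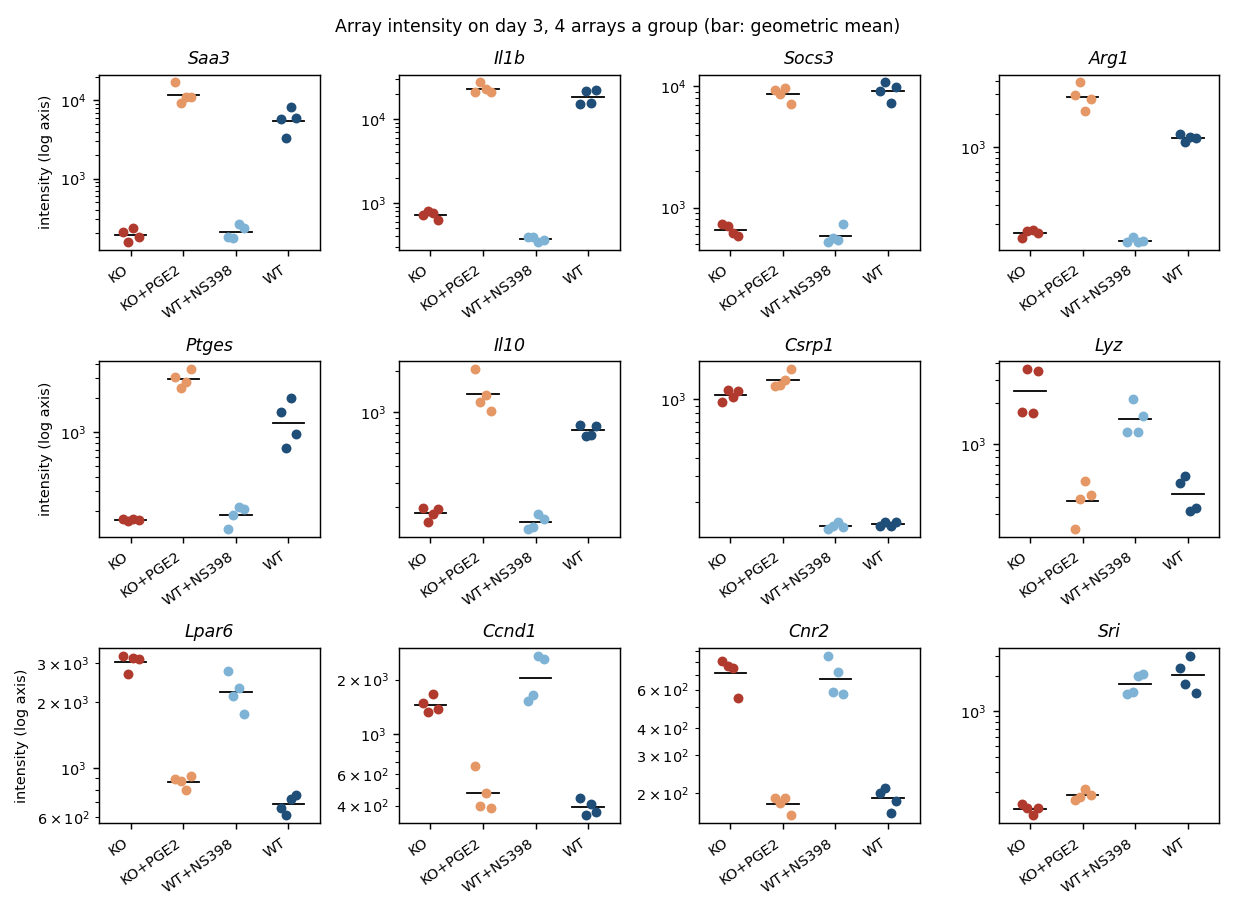
Intensity (log axis) of 12 genes in every day-3 array, with KO arrays on the left, then KO with PGE2, WT with NS398 and WT arrays, and a bar at each geometric mean. Saa3, Il1b, Socs3, Arg1, Ptges and Il10 are low in KO and in NS398 arrays, Lyz, Lpar6, Ccnd1 and Cnr2 are high in both, and Csrp1 and the Sri probe shown differ between the genotypes.

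The 250 bases before the start of 5 of these genes are shown because they led the changes, 4 as falls and Lpar6 as a rise. They come from the RefSeq promoter table (GRCm38.p6) and run 5′ to 3′ on the strand of the gene. Capitals mark a match, on either strand, to NF-kappaB (GGGRNWYYCC), STAT (TTCNNNGAA), CRE (TGACGTCA), AP-1 (TGANTCA) or C/EBP (TTGCNNAA).
Saa3 (chr7:46715677-46715926, - strand): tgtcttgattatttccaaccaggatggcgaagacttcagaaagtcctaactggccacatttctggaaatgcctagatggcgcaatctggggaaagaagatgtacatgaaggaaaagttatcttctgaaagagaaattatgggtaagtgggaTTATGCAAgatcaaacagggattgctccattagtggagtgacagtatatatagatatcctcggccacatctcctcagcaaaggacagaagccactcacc
Il1b (chr2:129371140-129371389, - strand): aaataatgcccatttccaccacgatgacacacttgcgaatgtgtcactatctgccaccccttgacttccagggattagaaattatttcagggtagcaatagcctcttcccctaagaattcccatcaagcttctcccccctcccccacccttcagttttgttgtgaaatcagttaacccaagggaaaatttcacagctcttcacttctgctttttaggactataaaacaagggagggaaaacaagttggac
Socs3 (chr11:117969367-117969616, - strand): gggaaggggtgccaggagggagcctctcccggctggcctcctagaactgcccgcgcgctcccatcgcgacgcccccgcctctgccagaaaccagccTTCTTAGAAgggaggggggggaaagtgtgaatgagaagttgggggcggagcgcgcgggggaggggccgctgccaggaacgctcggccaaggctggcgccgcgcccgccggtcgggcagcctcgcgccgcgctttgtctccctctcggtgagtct
Ptges (chr2:30903298-30903547, - strand): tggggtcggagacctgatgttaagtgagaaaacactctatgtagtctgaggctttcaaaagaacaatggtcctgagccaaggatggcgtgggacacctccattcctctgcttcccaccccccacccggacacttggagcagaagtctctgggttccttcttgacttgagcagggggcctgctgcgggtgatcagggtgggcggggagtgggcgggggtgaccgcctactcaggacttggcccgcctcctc
Lpar6 (chr14:73237641-73237890, + strand): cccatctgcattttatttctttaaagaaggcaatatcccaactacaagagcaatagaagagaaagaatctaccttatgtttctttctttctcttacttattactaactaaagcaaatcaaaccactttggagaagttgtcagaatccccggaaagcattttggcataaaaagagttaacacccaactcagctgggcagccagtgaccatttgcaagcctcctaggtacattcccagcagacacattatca
Of the 5 motifs, Saa3 held a C/EBP match 99 to 92 bases before its start and Socs3 a STAT match 154 to 146 bases before its start; these do not overlap another motif. The windows of Il1b, Ptges and Lpar6 held none of these letters. Over one window for each of 27025 symbols, 9.55% held the C/EBP letters, 7.18% STAT, 6.87% AP-1, 3.75% NF-kappaB and 1.62% CRE. Of 329 genes called lower in KO with a window, 7.6% held the NF-kappaB motif, 9.12% AP-1, 7.9% STAT, 10% C/EBP and 2.13% CRE. Of 377 genes called higher, 3.98% held NF-kappaB, 3.71% AP-1, 3.98% STAT, 8.75% C/EBP and 2.12% CRE. Of all 4471 named genes with a window 4.85% held NF-kappaB, 5.1% AP-1, 5.99% STAT, 8.14% C/EBP and 2.68% CRE. These matches describe letters in the windows, and no factor's binding was measured.

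Inflammatory cytokines and the feedback genes of NF-kappaB, the transcription factor that RANKL and TNF activate, were lower in KO. In the list of NF-kappaB feedback and target genes 13 of 16 tested members fell and 0 rose, with a median log2 change of -1.01, against 0.017 over all named genes. With the 4 closest pairs averaged 9 of the 16 were called. The inhibitor of NF-kappaB Nfkbia averaged 4159 ± 319.7 in KO and 8609 ± 562 in WT arrays (log2 -1.05 ± 0.11, adjusted p = 7.34e-06). The list's falls included its relative Nfkbie (log2 -1.20), the A20-binding protein Tnip1 (log2 -1.32), the adaptor Traf1 (log2 -1.07) and the adhesion molecule Icam1 (log2 -1.24). The subunits Relb (log2 -0.79) and Nfkb2 (log2 -0.56) fell. Nfkb1 had a log2 change of -0.41 and was not called.

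Of 19 cytokine genes 11 fell and 0 rose (median -0.56), and 9 were called with the pairs averaged. Besides Il1b and Il1a, Tnf, an NF-kappaB activator and osteoclast-promoting cytokine, averaged 1239.5 ± 161 in KO and 4478 ± 144 in WT arrays (log2 -1.86, adjusted p = 1.67e-07). Il10, an anti-inflammatory cytokine, read 197, 155, 178 and 194 in KO arrays, against 804, 667, 669.7 and 786 in WT arrays (log2 -2.02 ± 0.17, adjusted p = 9.79e-07). Genes of opposite inflammatory roles thus lay on the same side: the interleukin-1 receptor antagonist Il1rn fell (log2 -1.59), and so did Osm (log2 -1.42), the gp130 cytokine oncostatin M. Il15 (log2 -1.03) and Lif (log2 -0.81) fell as well. Il6 had a log2 change of -0.21, Csf1 of -0.30 and Il18 of -0.08, and none of these was called.

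Among 20 chemokines 9 fell and 1 rose (median -0.29), but with the pairs averaged only 4 of the falls and the rise were called. The neutrophil attractant Cxcl1 averaged 5285 ± 262 in KO and 25984 ± 2744 in WT arrays (log2 -2.29, adjusted p = 8.17e-08). The T cell attractant Ccl5 (log2 -2.30), Ccl4 (log2 -1.88) and Ccl3 (log2 -1.79) fell, while Ccl6 rose by 0.94. Leaving out 1 array at a time gave 5 to 7 falls in this list, with 5 without KO array 8 or WT array 2. Of 11 chemoattractant receptors Fpr2, Ccrl2 and Fpr1 fell, and Cx3cr1, the fractalkine receptor, was not above background in WT arrays and at least 1.69-fold higher in KO.

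Secreted defence proteins were mostly lower, with Saa3 leading. Of 16 genes of that list 7 fell and 1, Lyz, rose (median -0.43; 5 and 1 with the pairs averaged). S100a8, a calcium-binding protein of myeloid cells, averaged 343 ± 69.3 in KO and 1798 ± 357 in WT arrays (log2 -2.39, adjusted p = 2.67e-04). Lcn2, which binds bacterial iron carriers, was not above background in KO arrays and at least 3.6-fold lower there (adjusted p = 5.87e-07). The hemoglobin-binding protein Hp (haptoglobin) fell (log2 -0.80). C3 had a log2 change of -0.20 and was not called. These genes are also made by neutrophils. S100a8 and Lcn2 are themselves among the 11 neutrophil markers tested, so the marker list is not separate from them. All 11 had log2 changes below 0, 3 of them called (2 to 5 with 1 array left out, 5 without WT array 3). Their summed intensity was 1727 to 1958 in KO arrays, against 3189 to 4722 in WT arrays. S100a8 and Lcn2 (Lcn2 mean 144 in KO and 539 in WT arrays) made up most of this gap. The neutrophil granule genes Mpo, Elane and Prtn3 averaged 139, 149 and 141 in KO and 147, 154 and 147 in WT arrays. These lay near the dim end of the scale, and no detection p-value was given for them. Other members differed more: S100a9 averaged 136 in KO and 282 in WT arrays, Ltf 161 and 248, and Ngp 143 and 174. Of the 5 members with a detection p-value, 1 was above background in KO and 4 in WT arrays. The part of such cells in the result was not tested. In bulk cells fewer cells of a type and less RNA per cell cannot be told apart.

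Genes of arginine, polyamine and nitric oxide metabolism fell with Arg1. Of 16 tested members 9 fell and 0 rose (median -0.64), 4 with the pairs averaged. The cystine carrier Slc7a11 read 2301, 1773, 1662 and 2195 in KO arrays, against 5242, 4708, 4836 and 5340.1 in WT arrays, with no overlap (log2 -1.36, adjusted p = 9.38e-06). One probe of the arginine carrier Slc7a2 fell (log2 -0.93) and the other was not called. Odc1, which makes putrescine from ornithine, averaged 5273 ± 488 in KO and 8248 ± 575 in WT arrays (log2 -0.65, adjusted p = 0.00679), and its call was lost with the pairs averaged (adjusted p = 0.135). Asl, Asns and Slc7a5 had log2 changes of 0.0044, 0.12 and 0.06.

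PGE2 signals through cyclic AMP, and of 17 genes known to respond to it 6 fell and 1 rose (4 and 1 with the pairs averaged). Arg1 and Il10 led the falls. Areg, the EGF receptor ligand amphiregulin, was not above background in KO arrays and at least 2.4-fold lower there (adjusted p = 1.11e-06), and the related ligand Hbegf fell (log2 -0.85). Dusp1, a phosphatase that turns off MAP kinases, moved the other way, with 4138 ± 274 in KO and 2451 ± 260.1 in WT arrays (log2 0.76, adjusted p = 4.36e-04). Among other phosphatases of this family Dusp2 fell to 209 ± 22.3 in KO, against 855 ± 232 in WT arrays, and Dusp6 rose by 1.02. The cAMP-responsive genes Crem, Fos and Vegfa had log2 changes of 0.52, 0.34 and 0.41 and were not called.

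In JAK-STAT signalling 8 of 21 genes fell and 1 rose, 4 and 0 with the pairs averaged. Besides Socs3, Bcl3 (log2 -1.41), a nuclear IkB protein, and Cish (log2 -0.70), another inhibitor of cytokine receptors, fell. Without WT arrays 2 and 4 neither passed (adjusted p = 0.0631 for Bcl3 and 0.0656 for Cish). Stat3 had a log2 change of 0.56 and was not called. In the list of immediate early factors Ier3, an NF-kappaB and stress target, fell (log2 -2.32), as did Fosl1 (log2 -0.52), while Egr2, a zinc-finger factor, rose by 1.18 and Cebpa, a myeloid factor, by 0.64.

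Of 26 proteases, serpins and inhibitors 7 fell and 1 rose (5 and 0 with the pairs averaged). Timp1, an inhibitor of matrix metalloproteases, averaged 341 ± 30.9 in KO and 1364 ± 305 in WT arrays (log2 -1.98, adjusted p = 2.6e-05). The collagenase Mmp13 read 413, 381, 343 and 388 in KO arrays, against 884, 1016, 776 and 1070.0 in WT arrays (log2 -1.29, adjusted p = 1.05e-05). Mmp9 and Mmp14, which osteoclasts use, had log2 changes of -0.057 and 0.12. Osteoblast and stromal genes lay lower as well, all 12 tested below 0 and 4 called (3 with the pairs averaged, 7 without WT arrays 3 and 6), with a summed intensity of 2055 to 2103 in KO arrays, against 2398 to 2987 in WT arrays; Dcn (decorin) was not above background in KO arrays and at least 1.59-fold lower there. The part of stromal cells in the falls of Timp1 and Mmp13 was not tested.

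**Figure D3:**
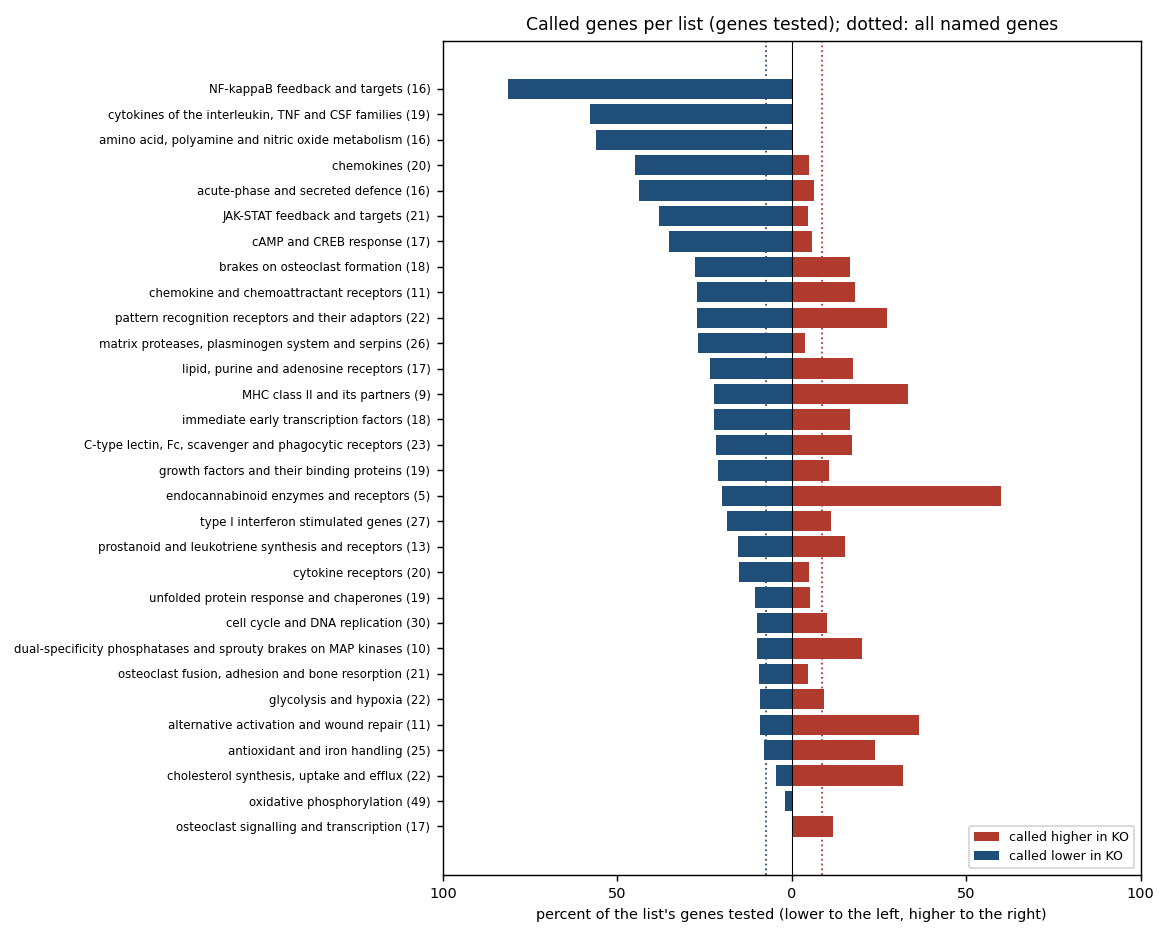
Percent of the genes tested in each list that were called lower (blue, to the left) and higher (red, to the right) in KO on day 3, with the number tested in brackets and dotted lines at the 7.52% lower and 8.73% higher of all named genes. NF-kappaB, cytokine and arginine lists extend furthest to the left with no call to the right, and the endocannabinoid list, with 5 genes, furthest to the right.

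Genes of sterol handling lay mostly higher in KO. Of 22 genes of cholesterol synthesis, uptake and efflux 7 rose and 1 fell (median 0.25), and 3 rose with the pairs averaged. Msmo1, a sterol demethylation enzyme, read 2223, 1815, 2342 and 3604 in KO arrays, against 922, 723, 1079 and 991 in WT arrays (log2 1.39 ± 0.18, adjusted p = 1.31e-04). Sqle, the squalene epoxidase, averaged 3780.1 ± 397 in KO and 2033 ± 189.7 in WT arrays (log2 0.89, adjusted p = 4.5e-04). Hsd17b7 rose by 0.59, and Insig1, which holds back the sterol-sensing SREBP system, by 0.50; Insig1 did not pass with the pairs averaged (adjusted p = 0.0516) or without WT arrays 2 and 4 (adjusted p = 0.06). Hmgcs1, an early enzyme of sterol synthesis, had a log2 change of 0.33 and was not called.

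Of 5 endocannabinoid genes tested 3 were called higher and 1 lower (2 and 0 with the pairs averaged). Cnr2, the cannabinoid receptor of immune cells, read 812, 774, 749.9 and 546 in KO arrays, against 201, 212, 163 and 185 in WT arrays (log2 1.91 ± 0.14, adjusted p = 2.68e-07). Daglb, which makes the endocannabinoid 2-arachidonoylglycerol, read 5978, 5103, 5836 and 5547 in KO arrays, against 2679, 2476, 2736 and 2893 in WT arrays (log2 1.06 ± 0.1, adjusted p = 3.88e-06), while its second probe had a log2 change of 0.25 and was not called. The hydrolase Abhd12 averaged 1207 ± 95 in KO and 863 ± 91 in WT arrays (log2 0.49, adjusted p = 0.0335); it did not pass when any of 6 arrays was left out (adjusted p = 0.0532 to 0.0954). Napepld, a synthase of N-acylethanolamines, had a log2 change of -0.48 (adjusted p = 0.0155) and did not pass without KO array 7 (adjusted p = 0.0554). Mgll, which degrades 2-arachidonoylglycerol, had 3 probes, of which 1 was called lower (log2 -0.42).

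Of 13 prostanoid and leukotriene genes 2 rose and 2 fell (2 and 1 with the pairs averaged). Ptger2, the EP2 receptor of PGE2, read 313, 272, 311 and 310.1 in KO arrays, against 197, 222, 181 and 194 in WT arrays (log2 0.61 ± 0.099, adjusted p = 9.98e-04). The synthase Ptges thus fell in the same cells in which this receptor rose. The lysosomal phospholipase Pla2g15 rose by 0.67. Ptges2, the constitutive relative of Ptges, averaged 244 ± 16.4 in KO and 311 ± 37.9 in WT arrays and did not pass without 6 of the 8 arrays, one at a time (adjusted p = 0.0518 to 0.157). Hpgds, the prostaglandin D2 synthase of myeloid cells, had a log2 change of 0.60, Alox5ap, the 5-lipoxygenase partner, of 0.36, and Tbxas1, the thromboxane synthase, of 0.15; none of these probes was called, though second probes of Hpgds (log2 0.74) and Tbxas1 (log2 0.65) were.

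Most genes of osteoclast differentiation did not pass the test, as held for named genes at large, of which 16.3% were called. Of 17 signalling and transcription genes 2 rose and 0 fell. Nfatc1, the master regulator of the lineage, averaged 2464 ± 476 in KO and 2439 ± 508 in WT arrays (log2 0.015), and Tnfrsf11a, the RANKL receptor RANK, 1477 ± 136 in KO and 1174 ± 553 in WT arrays (log2 0.45); neither was called. Pparg, a lipid-sensing nuclear receptor, rose by 0.88 on one probe, and its other probe was not called (log2 -0.06). Traf6, the adaptor that carries the RANK signal, was not above background in WT arrays and at least 2.22-fold higher in KO, with 297, 317, 260.5 and 291 in KO arrays against 123, 127, 140.3 and 119 in WT arrays. Of 21 fusion, adhesion and resorption genes 2 fell and 1 was called higher. Slc4a2, the anion exchanger that balances acid secretion, read 7630.5, 7966, 7813 and 9285 in KO arrays, against 18671, 14084, 16078 and 14585 in WT arrays (log2 -0.95 ± 0.11, adjusted p = 2.53e-05). Ocstamp, a fusion protein, fell (log2 -0.61), and its partner in fusion Dcstamp had a log2 change of -0.25 without a call. Adam8, a surface protease, averaged 2173 ± 423 in KO and 1587 ± 179 in WT arrays and did not pass when any of 6 arrays was left out (adjusted p = 0.0504 to 0.137). Acp5 (TRAP), Ctsk and Car2 had log2 changes of 0.021, 0.035 and 0.11. A p that misses the threshold does not show equal levels: the SE was 0.26, 0.12 and 0.25 for these 3 genes.

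Brakes on osteoclast formation moved both ways. Of 18 such genes 5 fell, among them Il10 and Nfkbia, and 3 rose (3 and 2 with the pairs averaged). Irf2, a repressor of interferon genes, rose by 0.65 and did not pass without WT arrays 2 and 4 (adjusted p = 0.0507). Id1, an inhibitor of helix-loop-helix factors, rose by 0.80, a call lost with the pairs averaged (adjusted p = 0.0816). Tnfrsf11b (osteoprotegerin, the RANKL decoy) had a log2 change of 0.017 and was not called.

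Antigen-presentation, interferon and pattern recognition genes had calls in both directions. Among 9 class II genes and partners the brightest of 4 probes of H2-Ab1 rose by 0.78 and 2 of the 4 did not pass, H2-Eb1 rose by 0.82 and the invariant chain Cd74 by 0.65, while Cd83, which keeps class II proteins on the surface, fell (log2 -1.30). Of 27 interferon-stimulated genes 5 fell, led by the guanylate-binding proteins Gbp2 (log2 -2.49) and Gbp3 (log2 -1.60), and 3 rose (4 and 1 with the pairs averaged). The interferon-induced genes Isg15 and Irf7 had log2 changes of -0.21 and 0.013 and were not called. Among 22 pattern recognition genes 6 fell and 6 rose (3 and 2 with the pairs averaged). The inflammasome sensor Nlrp3 (log2 -1.23) and the kinase-dead IRAK family member Irak3 (log2 -1.02) fell. Among lectin and phagocytic receptors Clec4e and Clec4n (log2 -1.18) fell while Clec7a and the apoptotic-cell receptor Mertk (log2 0.75) rose, Mertk not without WT arrays 2 and 4 (adjusted p = 0.0659). Of 17 lipid and purine receptors the adenosine receptor Adora2b, which couples to cyclic AMP, fell (log2 -1.68), opposite to Cnr2 and Lpar6.

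Oxidative phosphorylation genes lay at 2 levels within groups. Of 49 tested 46 had log2 changes below 0 (median -0.41), but 1, Cyc1, was called; its groups overlapped and it did not pass without 6 of the 8 arrays, one at a time (adjusted p = 0.0601 to 0.153). The mean log2 level of the list, relative to the WT mean, was -0.28, -0.57, -0.27 and -0.40 in KO arrays 7, 8, 11 and 12r. It was 0.25 and 0.26 in WT arrays 2 and 4 but -0.28 and -0.22 in WT arrays 3 and 6, close to KO arrays 7 and 11. The other day-3 groups split in the same way, with 0.24, 0.27 and 0.39 in KO with PGE2 arrays 20, 23r and 24r and -0.24 in array 21r, and 0.16 and 0.19 in NS398 arrays 17 and 18 and -0.53 and -0.46 in arrays 13 and 16r. No KO array was on the high side. Without WT arrays 3 and 6 the list had 11 calls, all lower, and without WT arrays 2 and 4 it had 0. The cytokine list put all KO arrays below all WT arrays, with KO between -1.04 and -1.01 and WT between -0.048 and 0.045.

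**Figure D4:**
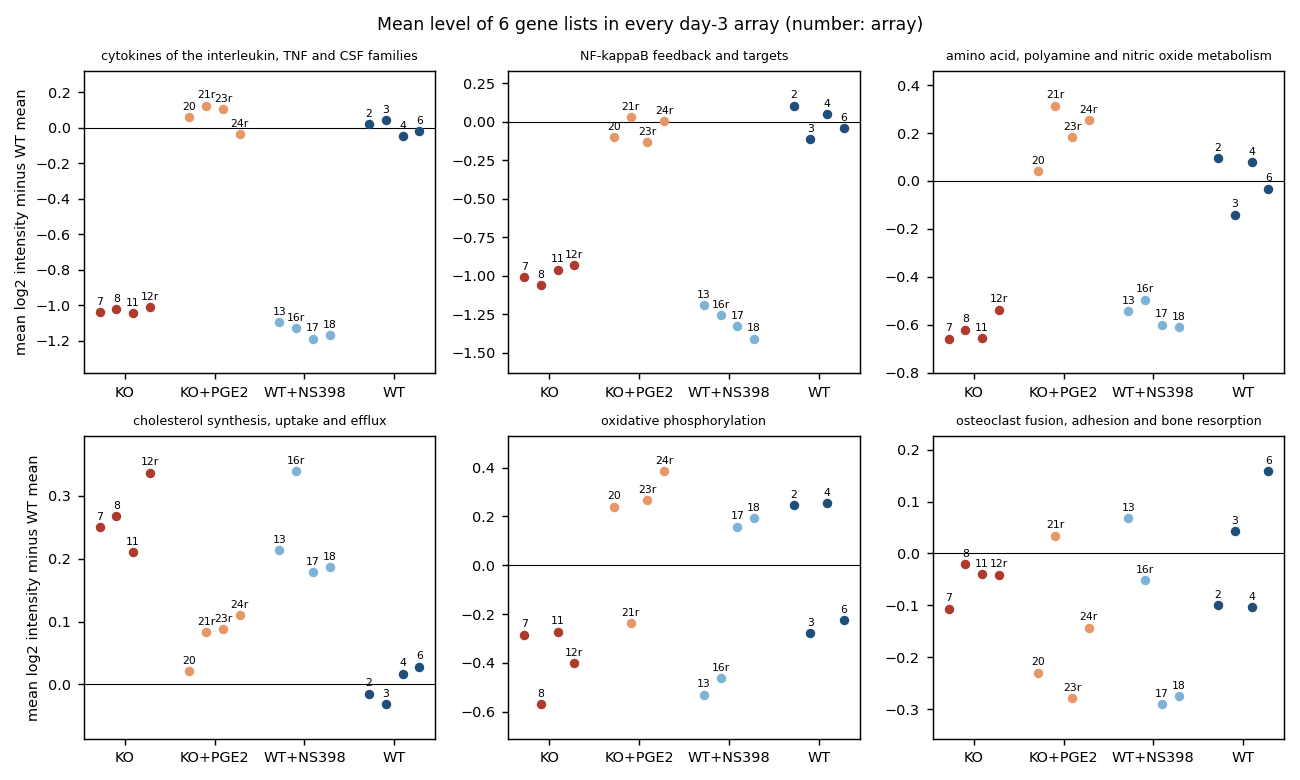
Mean log2 intensity of 6 gene lists, relative to the WT mean, in every day-3 array, with KO arrays on the left and WT arrays on the right; numbers are array names. The cytokine, NF-kappaB and arginine lists put all KO and NS398 arrays below all WT arrays, whereas the oxidative phosphorylation list splits the WT, NS398 and PGE2 groups.

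The leading genes were also read in KO cells given PGE2 and in WT cells given NS398. These comparisons share KO or WT arrays with the main one, so their values are set side by side. The 20 falls and 20 rises were chosen on those same arrays, and that choice alone moves the counts below. Shares over all genes, which were not so chosen, are therefore no fair background for them. Of the 20 largest falls 6 were called between KO and NS398 arrays in a direct test, and of the 20 largest rises 6 were. That test called 0.738% of all probes and 1.95% of named genes. PGE2 in KO cells raised 18 of the 20 falls and lowered 18 of the 20 rises. Over all named genes it raised 15.1% and lowered 17%. Saa3 averaged 194 ± 34.8 in KO, 12081 ± 3371 in KO with PGE2, 213 ± 43.8 in NS398 and 5820.0 ± 2036 in WT arrays (KO minus NS398 log2 -0.13, adjusted p = 0.941). Arg1 averaged 167 in KO, 2906 in KO with PGE2, 142 in NS398 and 1215 in WT arrays, so that PGE2 took it above WT (log2 1.23, adjusted p = 5.66e-05). Cnr2 averaged 720.4 in KO, 179.5 in KO with PGE2, 683 in NS398 and 190.0 in WT arrays. Il1b was lower still under NS398 than in KO: 721, 799.7, 748 and 629.5 in KO arrays, against 392, 396, 345 and 365 in NS398 arrays (log2 0.95, adjusted p = 9.23e-04). The same held for Tnf (log2 0.70) and Cxcl1 (log2 0.85), whereas Gbp2 and Fpr2 were lower in KO than under NS398 (log2 -1.31 and -0.81).

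Some leading genes were called between KO and NS398 arrays and not between NS398 and WT arrays, a test that called 14.8% of named genes. One of 3 probes of Sri, the calcium-binding protein sorcin, was not above background in KO arrays and at least 13.9-fold lower there. It read 158, 145, 126 and 146 in KO arrays, 169.7, 184, 214 and 188 in KO with PGE2, 1399, 1452, 2022 and 2086 in NS398 and 2367, 1707, 2963 and 1432 in WT arrays (KO minus NS398 log2 -3.58, adjusted p = 2.22e-08). The other 2 probes of Sri had log2 changes of -0.22 and -0.042 (KO minus WT) and were not called, so the difference is that of 1 probe. Cd300ld, an activating immune receptor, averaged 196 ± 2.93 in KO, 172 ± 17.5 in KO with PGE2, 1313 ± 209 in NS398 and 1160.4 ± 153 in WT arrays. Csrp1 averaged 1068 in KO, 1351 in KO with PGE2, 137 in NS398 and 141 in WT arrays. Uap1, an enzyme of amino-sugar synthesis, was not above background in WT arrays and at least 3.1-fold higher in KO, and it was not called between KO with PGE2 and KO arrays (log2 0.41, adjusted p = 0.164). Traf6 averaged 291 in KO, 261 in KO with PGE2, 123 in NS398 and 128 in WT arrays. H2-Eb1 and H2-K2, both in the major histocompatibility region, were higher in KO than under NS398 (log2 0.83 and 1.28). Cd74 and H2-Ab1, which also rose in KO, differed from these in being higher still under NS398 (KO minus NS398 log2 -0.81 and -0.69). Srxn1, a sulfiredoxin, had probes called in both directions, the only gene of which this was so; the brighter one averaged 1527 ± 222 in KO, 1125 ± 141 in KO with PGE2, 4751 ± 788 in NS398 and 3495 ± 483 in WT arrays. The loss of Cox2 and any other difference between the KO and WT mice cannot be told apart here.

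Genes that neighbour Ptgs2 on chromosome 1 were called often. Of the 12 named genes within 5 Mb of it in the RefSeq table (GRCm38.p6) 3 were called higher and 3 lower, or 50%, against 16.3% of all named genes. Of 62 genes between 5 and 20 Mb away, 25.8% were called, among them Csrp1, Lad1, Chil1 and Il10, and of 229 elsewhere on the chromosome 20.5%. Rgl1, an activator of Ral GTPases, averaged 211 ± 12.5 in KO, 219.7 ± 25.7 in KO with PGE2, 409 ± 56.9 in NS398 and 560.1 ± 115 in WT arrays (KO minus WT log2 -1.39, adjusted p = 3.32e-06). Trmt1l, a tRNA methyltransferase-like gene, rose by 1.21 and the nuclear pore gene Tpr by 0.55; the call of Tpr was lost with the pairs averaged (adjusted p = 0.128). The clone-named gene 1700025G04Rik fell (log2 -0.90).

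The same genotype comparison after 1 day with RANKL had far more calls, and the experiments were normalized separately, so the changes of both days are given and not tested against each other. Of 16237 probes tested on both days 1196 were called on day 3 and 5665 (34.9%) on day 1. Of 553 probes lower in KO on day 3, 53.5% were also lower on day 1 and 14.3% higher, against 15.3% and 19.6% of all probes tested on both days. Of 643 probes higher on day 3, 59.6% were also higher on day 1 and 13.4% lower. As shares of the day-1 lists these were 11.9% of the probes lower and 12.1% of those higher on day 1. Saa3 had a log2 change of -7.70 on day 1, against -4.85 on day 3, Il1b of -6.77 against -4.67, and Chil1 of -6.66 against -2.58. Gja1 had a change of -0.78 on day 1 and -2.44 on day 3. Vcam1 was not called on day 1 (log2 -0.083). Some genes were called in opposite directions: Il10 had a log2 change of 0.69 on day 1 and -2.02 on day 3, Clec7a of -1.77 and 1.56, Cd300ld of 3.64 and -2.56, and Sri of 1.73 and -3.83.

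**Figure D5:**
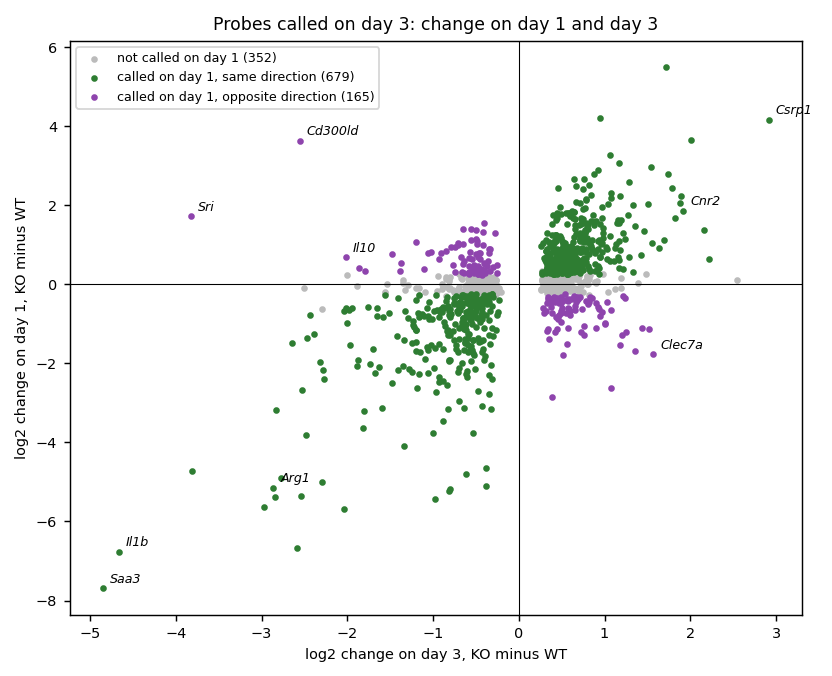
Log2 change (KO minus WT) on day 3 (x axis) and day 1 (y axis) of the 1196 probes called on day 3 and tested on both days. Green points (679) were called on day 1 in the same direction, purple points (165) in the opposite direction, and grey points were not called on day 1; Cd300ld and Sri lie among the opposite ones.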

How the data were processed

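RNA was measured on Illumina bead arrays. Per the submitters' processing notes GenomeStudio was used; its version and the normalization method are not stated there. The deposited intensities are linear, and their near-equal distributions within each experiment led to their being taken as quantile normalized by the authors. Gene symbols, group means, detection p-values, the ratio of WT to KO and the differential expression score come from the authors' deposited tables, which list 7244 of 25697 probes. A group was taken as not above background from the deposited detection p-values, and "at least" folds use the dimmest detected signal.

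Intensities were log2 transformed with no pseudocount. Probes above the 40th percentile of an array in at least 4 arrays were kept, 18961 in all. One mean per group was fitted to the 16 day-3 arrays with limma 3.58.1 in R 4.3.3 (lmFit and eBayes, Benjamini-Hochberg adjustment), after a test on simulated data. A gene with several probes is represented by 1 of them. Named genes are the 20 largest falls and rises without overlap, and list members by p-value or brightness. The prostanoid, endocannabinoid and osteoclast lists, neighbours of Ptgs2 and 8 genes known beforehand were named too. Mpo, Elane and Prtn3 were added as defining neutrophil markers. S100a9, Ltf and Ngp are given beside them as further members of that list. Members and lists were chosen with earlier results of these data known. Some genes are not reported here. The number of arrays limits the precision.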

Additional observations from a re-analysis of the deposited data

Results flagged for a closer look

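For 18 of 272 sets of 4 arrays behind the genes named, 1 array lay far from the other 3 by Dixon's test, and chance alone sets 1 array apart in about 1 of 20 such sets. In KO these intensities were those of Adam8 in array 8 (2805), Bcl3 in array 12r (574), Fosl1 in array 8 (205), Lpar6 in array 8 (2689), Mmp9 in array 12r (29267), Nfkb2 in array 7 (348), Pparg in array 7 (343), Ptger2 in array 8 (272), Rgs1 in array 12r (1874), Slco2b1 in array 12r (810.2) and Tnip1 in array 12r (5978). In WT these intensities were those of Cx3cr1 in array 3 (113), Dusp6 in array 3 (1404), Gbp3 in array 6 (826), Il15 in array 6 (1074), Nfkb2 in array 3 (649.8), Pdpn in array 6 (8471) and Sqle in array 6 (2315). 

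For 11 genes KO and WT arrays did not overlap on either day and lay in opposite directions on day 1 and day 3, in log2 KO minus WT: Ccl3 (0.34 on day 1, -1.79 on day 3), Cd300ld (3.64 on day 1, -2.56 on day 3), Clec7a (-1.77 on day 1, 1.56 on day 3), Dusp6 (-0.45 on day 1, 1.02 on day 3), Gclm (-0.42 on day 1, 0.58 on day 3), H2-K2 (-1.09 on day 1, 1.43 on day 3), Hsd17b7 (-0.68 on day 1, 0.59 on day 3), Il10 (0.69 on day 1, -2.02 on day 3), Il15 (0.83 on day 1, -1.03 on day 3), 1 of the 3 probes of Sri (1.73 on day 1, -3.83 on day 3) and Tnf (0.42 on day 1, -1.86 on day 3). The share of all probes that met this rule was not counted, so these 11 cannot be called many or few. On day 3 alone 11.6% of all probes tested did not overlap. Of all probes called lower in KO on day 3, 14.3% were called higher on day 1. Of those called higher, 13.4% were called lower on day 1. No test of day 1 against day 3 was run because each experiment had its own normalization.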

How the results depend on the processing

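No paired analysis was possible because the groups compared share no replicate number. Against 1208 probes called (650 higher, 558 lower in KO), array weights gave 2341 (1273 higher, 1068 lower), a limma treat test against a log2 change of 0.5 gave 142 (50 higher, 92 lower) and an adjusted p under 0.01 gave 642 (342 higher, 300.0 lower). Among settings chosen after seeing the data, the total was 2350 (1271 higher, 1079 lower) without WT arrays 3 and 6, 598 (301 higher, 297 lower) without WT arrays 2 and 4, and 458 (238 higher, 220.0 lower) with the 4 closest array pairs averaged. Leaving out each array in turn gave 822 to 1361 calls (437 to 737 higher, 385 to 624 lower). Calls shared with day 1 numbered 679 in the same direction (521 to 711 on leaving out an array) and 165 in opposite directions (101 to 209, with 107 without KO array 7, 106 without WT array 4 and 101 without WT array 2). Of 204 named results called, 157 kept their call in all leave-outs and 47 lost it in at least 1. With the pairs averaged 77 of the 204 were no longer called. None of the 204 was called in the opposite direction under the settings run. Changes that were not called could change sign. The median log2 change of the 17 osteoclast signalling genes was 0.11 in the main run and -0.15 without WT arrays 2 and 4. The cause of these differences was not tested. Signal near background limits the folds of Sri, Lad1, Csrp1, Uap1, Traf6, Lcn2, Areg, Cx3cr1 and Dcn to bounds.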
